A study of Rattus norvegicus with 47 samples.

Results

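Stat3, Socs3, Cebpb, Cebpd and Irf1 encode 4 transcription factors and 1 signalling inhibitor that cells use to respond to cytokines. They were taken as all probe sets to which the platform's annotation gives 1 of these 5 symbols alone. This gave 10 of the 8799 probe sets on the array, 2 for Stat3, 1 for Socs3, 2 for Cebpb, 3 for Cebpd and 2 for Irf1. All 10 passed the filter on dim probe sets, which 7503 probe sets passed in all. The study measured total RNA (Trizol extraction) from rat brain after injury on 47 oligonucleotide arrays. The groups were ipsilateral hippocampus at 4 h (7 arrays) with contralateral hippocampus at 4 h (9), ipsilateral cortex at 24 h (8) with contralateral cortex at 24 h (8), and ipsilateral cortex at 4 h (7) with contralateral cortex at 4 h (8). Hippocampus is the reading given here to "HC" in the labels, and there was no hippocampal group at 24 h. The labels give side, region and hours after injury, with 1 treatment entry shared by all arrays, and no strain, age or kind of injury. No label marks a sham operation, so sham and injured animals could not be told apart. Contralateral tissue is the other side of the brain and is not taken as uninjured tissue. Within each ipsilateral group, some signals given below split between lower and higher sample numbers, which the labels do not explain. No label ties arrays to separate animals either, so the p-values reflect no more than array-to-array spread, part of which may be technical.

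Stat3 is a transcription factor that waits in the cytoplasm. Cytokines of the interleukin-6 family act through the shared receptor gp130 and the JAK kinases, which phosphorylate Stat3 and send it to the nucleus. Socs3 is induced by Stat3 and binds the receptor and its kinase to shut the signal off. Cebpb and Cebpd (C/EBP-beta and C/EBP-delta) are leucine-zipper factors that drive acute phase and inflammatory genes, and Cebpd is itself a known Stat3 target. Irf1 is the interferon-induced factor that turns on chemokine and antigen presentation genes, and NF-kB is known to induce it. In brain, these genes are known from astrocytes and microglia reacting to injury. Cebpb is also known from neurons, where cAMP and calcium signals induce it.

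In the RefSeq annotation of the assembly GRCr8, Stat3 spans chr10:86311528-86363513, Socs3 chr10:103692579-103695975, Cebpb chr3:176817005-176818436, Cebpd chr11:98268856-98269994 and Irf1 chr10:38417935-38424946. RefSeq promoter windows, 250 bases before to 50 bases after a listed start site, matched 4 of the 5 genes, with none for Cebpd. Each window was searched on both strands for the STAT element TTCNNNGAA, the C/EBP element TTNNGNAA, the cAMP response core TGACG and the interferon response element (GAAA, any 2 bases and GAAA). The windows of Cebpb and Irf1 are shown because they hold the matches, which are in capitals. The Irf1 window, chr10:38417685-38417984 on the plus strand, has 1 STAT element at positions −142 to −134 from the start site, and 8.87% of 33469 RefSeq windows have one. The Cebpb window, chr3:176816755-176817054 on the plus strand, has 3 matches of TGACG, at positions −234, −107 and −61 from the start site, the first on the opposite strand, and 21.2% of windows have at least 1.
Irf1: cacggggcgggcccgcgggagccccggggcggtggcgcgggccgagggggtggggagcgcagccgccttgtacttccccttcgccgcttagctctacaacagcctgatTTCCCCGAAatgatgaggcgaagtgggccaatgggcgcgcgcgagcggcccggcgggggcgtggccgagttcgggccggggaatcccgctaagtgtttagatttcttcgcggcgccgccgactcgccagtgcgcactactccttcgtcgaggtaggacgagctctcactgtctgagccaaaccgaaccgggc
Cebpb: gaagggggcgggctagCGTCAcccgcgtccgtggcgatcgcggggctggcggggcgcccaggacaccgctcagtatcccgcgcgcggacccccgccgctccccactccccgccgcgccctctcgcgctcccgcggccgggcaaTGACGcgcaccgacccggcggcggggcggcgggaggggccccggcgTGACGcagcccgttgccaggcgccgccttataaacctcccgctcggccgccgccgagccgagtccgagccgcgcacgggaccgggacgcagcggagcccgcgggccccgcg
The windows of Stat3 and Socs3 held none of the 4 motifs, and their listed start sites lie 154 and 1207 bases inside the annotated genes. A match is a stretch of letters and not a measured binding site. C/EBP elements occurred in 41.3% of windows and interferon response elements in 3.92%.

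The deposited signals had a median per array between 615 and 879, and arrays of 1 group correlated across probe sets with Pearson's r between 0.944 and 0.985. Signals under 185.8, the 25th percentile of all values, were raised to this floor before log2 was taken. Differences near the floor can therefore be understated, and some small ones turned direction with a lower floor. A group with every array at the floor shows no spread between arrays. The number of arrays limits the precision. Array 23 carries a contralateral hippocampal label, while the arrays numbered around it are ipsilateral. It had the highest contralateral hippocampal signal for Cebpd probe set M65149_at (3260 with a group median of 1320), for Socs3 (1012 with 400.0) and for Cebpb probe set S77528cds_s_at (948 with 391.9). The same held for Stat3 probe set rc_AI639141_at (745 with 313), which was lower on the ipsilateral side. Over the tested probe sets, array 23 had r = 0.966 with the mean of the other contralateral hippocampal arrays. Its r with the ipsilateral hippocampal mean was 0.958. The results of member probe sets past the threshold that use array 23 are given with and without it, and those of the other members without it stand together after the Irf1 values. Differences of genes outside the 5 are given with it only. The 10th percentile of signal, a measure of an array's dim end, was 43.98 ± 6.85 in ipsilateral hippocampus (SD, n = 7) and 64.8 ± 16.1 in contralateral hippocampus (n = 9). The summed hippocampal markers (2 of 5 listed genes on the array) ran from 5781 to 8719 in ipsilateral and from 4621 to 8043 in contralateral hippocampus, against 2019 to 5061 over the cortical arrays, so all hippocampal arrays but 25, 29 and 32 stood above all cortical ones. Of the 2, Nptx1 hardly differed on the contralateral side, with medians of 1998 in hippocampus and 1907 in cortex at 4 h. Neurod1 had 3520 and 1160 there. The tissue was bulk tissue, in which fewer cells of a type and less RNA per cell cannot be told apart.

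By probe set X91810_at Stat3 was higher at 24 h than at 4 h in cortex of both sides, and by X60769mRNA_at Cebpb was lower. The other Stat3 probe set had differences in the opposite direction that did not pass. In hippocampus the members that passed between sides did not move one way. At an adjusted p of 0.05 in limma, 3 of the 10 probe sets differed between 24 h and 4 h in ipsilateral cortex. Of all tested probe sets 19.3% did (11.4% higher, 7.92% lower). Among the 3, 1 of Stat3 was higher and 1 each of Cebpb and Cebpd were lower. The ratio of 3′ to 5′ signal of Gapdh, a sign of RNA quality, was 1.09 ± 0.0368 at 24 h and 1.19 ± 0.0853 at 4 h in ipsilateral cortex (SD, n = 8 and 7), and 1.08 ± 0.0358 at 24 h and 1.21 ± 0.0692 at 4 h in contralateral cortex (n = 8 each). The same ratio for actin was 1.44 ± 0.0558 at 24 h and 1.64 ± 0.169 at 4 h in ipsilateral cortex, and 1.44 ± 0.0781 at 24 h and 1.51 ± 0.148 at 4 h in contralateral cortex. In hippocampus at 4 h the Gapdh ratio was 1.12 ± 0.0538 on the ipsilateral and 1.09 ± 0.0414 on the contralateral side (n = 7 and 9). The actin ratio was 1.33 ± 0.0945 and 1.23 ± 0.0935 there. These means were below those of cortex at 4 h on the same side. The part of RNA quality in the time and region differences was not tested. In contralateral cortex 2 of 10 differed with time (21.5% of all, 13.2% higher and 8.25% lower), Stat3 higher and Cebpb lower. Between the sides of the hippocampus 3 of 10 differed (16.1% of all, 5.32% higher and 10.8% lower), 1 of Cebpb higher and 1 each of Cebpd and Stat3 lower on the ipsilateral side. Between the sides of the cortex none passed at 24 h (0.107% of all, 0.0933% higher and 0.0133% lower) or at 4 h (0% of all). At an unadjusted p under 0.05, 575 probe sets differed between cortical sides at 24 h and 558 at 4 h. Between hippocampus and cortex at 4 h, 3 of 10 differed on the ipsilateral side, 2 higher and 1 lower (27.5% of all, 16.7% higher and 10.8% lower), and 5 of 10 on the contralateral side, all higher (33.7% of all, 22.3% higher and 11.4% lower). The side difference in hippocampus differed from that in cortex at 4 h for 1 member, a Cebpd probe set that was lower (4.18% of all, 1.08% higher and 3.11% lower). The cortical side difference did not pass as different between 24 h and 4 h for any member (0% of all, with 421 probe sets at an unadjusted p under 0.05). None of these counts is read as setting the 5 genes apart from the array as a whole. The time comparisons share their 4 h or 24 h arrays with the side comparisons, so their values are given side by side and not as separate evidence. The region comparisons subtract the same 4 h cortical arrays as the time comparisons, so the same holds for them.

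**Figure D1:**
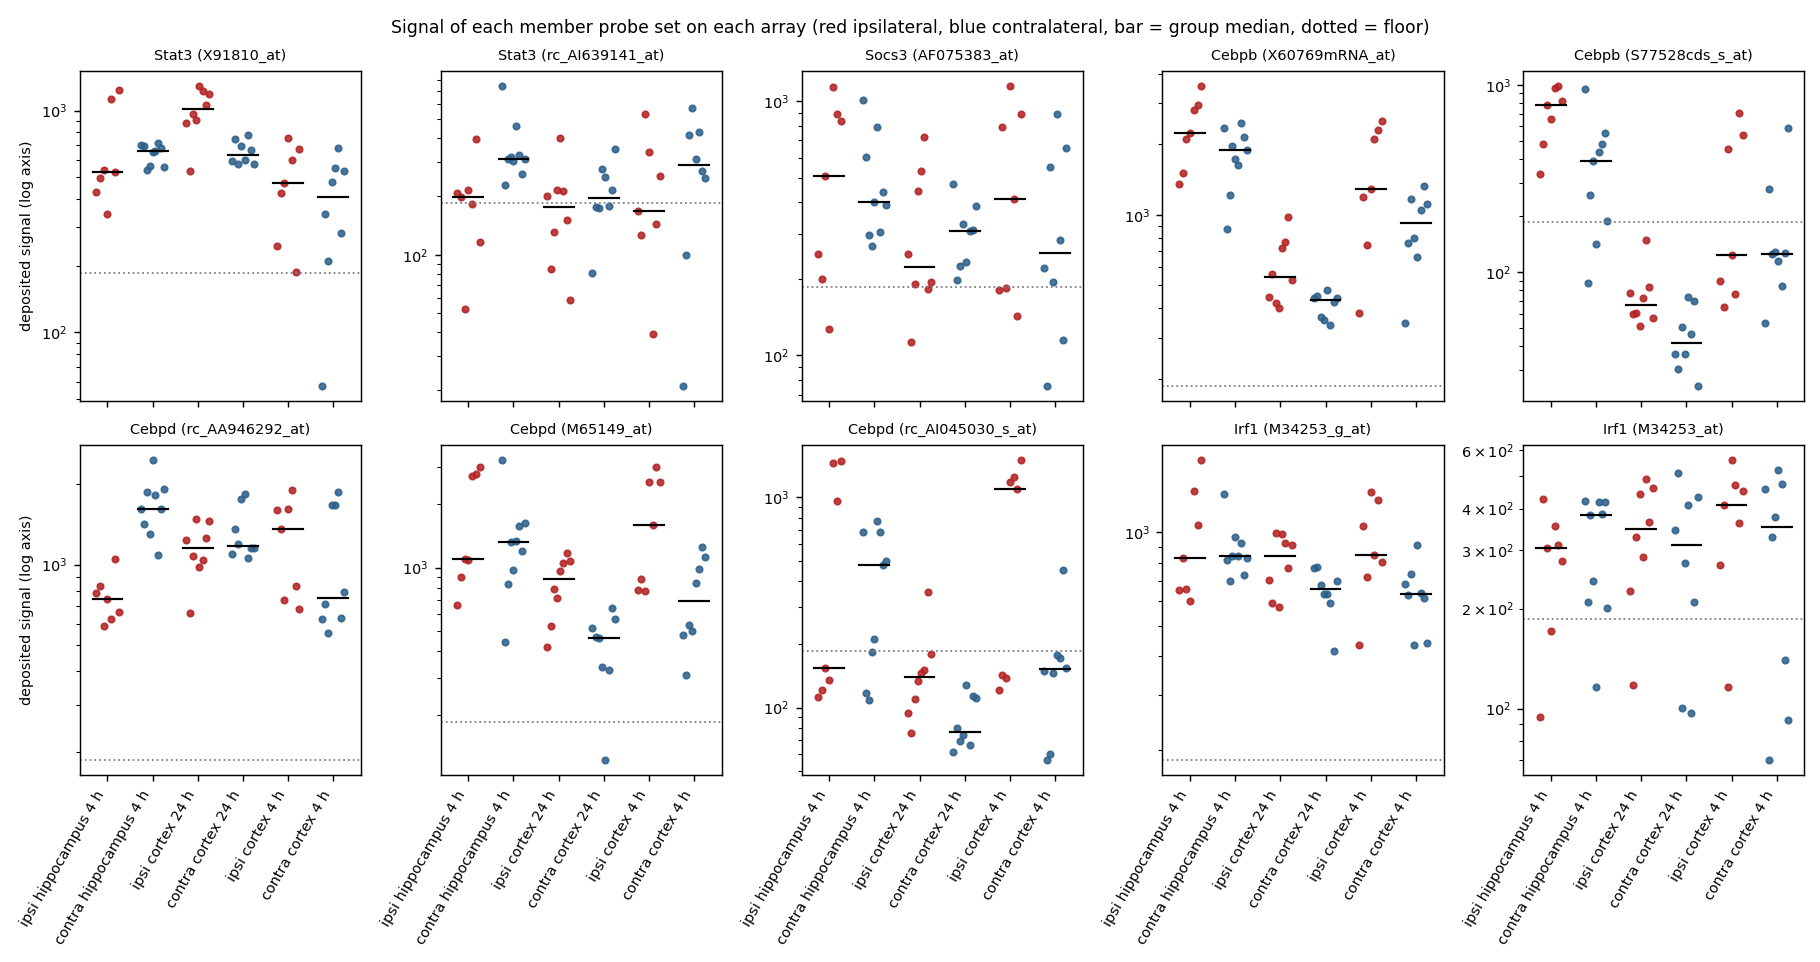
Deposited signal (log axis) of each of the 10 probe sets on each array, by group, with ipsilateral arrays in red, contralateral arrays in blue, a bar at the group median and a dotted line at the floor of 185.8. Stat3 probe set X91810_at is highest in ipsilateral cortex at 24 h, and Cebpb probe set X60769mRNA_at is highest in hippocampus and lowest in cortex at 24 h.

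Stat3, the signal transducer, had 2 probe sets, of which X91810_at was above the floor on every array but array 9. Its signal in ipsilateral cortex ran from 535 over a median of 1014 to 1296 at 24 h, against 187 over 473 to 753 at 4 h. Of the 8 arrays at 24 h, 7 lay above the highest at 4 h, and array 34 was the exception. The difference was 1.18 log2 units (SE 0.27, 2.26-fold, limma adjusted p = 0.00107). It passed in each of the 15 fits that left out 1 array, with values between 0.98 and 1.31. In contralateral cortex the signal ran from 577 over 632 to 776 at 24 h, against 57.2 over 410 to 677 at 4 h. All 8 arrays at 24 h lay above the 4 h median and 3 above the 4 h highest, so the groups overlapped. The difference was 0.81 (SE 0.26, 1.75-fold, limma adjusted p = 0.0182). Without array 9 or array 11, which had the lowest signals at 4 h, it no longer passed (adjusted p up to 0.0589, and a difference of 0.66 without array 9).

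Between the sides of the cortex at 24 h, 7 of 8 ipsilateral arrays stood above the highest contralateral array for Stat3 X91810_at, and array 34 stood below the lowest. The difference of 0.59 (SE 0.26, 1.504-fold) did not pass (limma adjusted p = 0.566). At 4 h it was 0.22 (SE 0.27, adjusted p = 0.920), and the change of the side difference with time was 0.37 (95% interval −0.37 to 1.11, adjusted p = 0.968). The summed microglia and macrophage markers (9 of 13 on the array) ran from 8440 to 20834 in ipsilateral cortex at 24 h, against 7602 to 12096 in contralateral cortex at 24 h. Arrays 37 to 40, with 15860 to 20834, had the 4 highest marker sums of their group, and arrays 37, 38 and 40 the 3 highest Stat3 signals. The part of these cells in the Stat3 signal was not tested.

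In hippocampus Stat3 X91810_at ran from 343 over 527 to 1241 on the ipsilateral side and from 539 over 656 to 714 on the contralateral side. Arrays 21 and 24 stood above every contralateral array and 4 ipsilateral arrays stood below every one, so the ipsilateral group spread to both ends. The difference was −0.08 (95% interval −0.59 to 0.44). The contralateral hippocampus was above contralateral cortex at 4 h by 0.78 (SE 0.25, 1.72-fold, limma adjusted p = 0.0126), with 9 of 9 arrays above the cortical median and 4 above its highest. Without array 23 it was 0.76 (adjusted p = 0.0191), and after quantile normalization it was 0.55 and did not pass (adjusted p = 0.0698). On the ipsilateral side the same difference was 0.49 (SE 0.27, adjusted p = 0.192). In order of mean log2 signal, Stat3 stood at 9.93 ± 0.41 in ipsilateral cortex at 24 h (SD, n = 8), then 9.34 ± 0.17 in contralateral cortex at 24 h (n = 8), 9.31 ± 0.16 in contralateral hippocampus (n = 9), 9.24 ± 0.70 in ipsilateral hippocampus (n = 7), 8.75 ± 0.75 in ipsilateral cortex at 4 h (n = 7) and 8.53 ± 0.69 in contralateral cortex at 4 h (n = 8). Only the first step, 0.59, was larger than the SD of either neighbour, and the ranges of all 5 pairs of neighbours overlapped.

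The other Stat3 probe set, rc_AI639141_at, was dim and did not follow X91810_at (r = 0.22 over 47 deviations from the group means, a description of arrays that share their groups). In hippocampus it ran from 52.6 over 198 to 396 on the ipsilateral side, where 3 of 7 arrays were at the floor, and from 228 over 313 to 745 on the contralateral side. Of the 7 ipsilateral arrays, 6 lay below the lowest contralateral array. The difference was −0.66 (SE 0.23, 1.58-fold lower, limma adjusted p = 0.0446). It passed in only 5 of 16 fits that left out 1 array, among which the value ran from −0.81 to −0.52. Without array 23 it was −0.52 (adjusted p = 0.104). It was also lost with a floor at the 10th percentile (−1.02, adjusted p = 0.0974), with an offset in place of the floor (−0.68, adjusted p = 0.0885), without the filter (adjusted p = 0.0579), after quantile normalization (−0.44, adjusted p = 0.171) and with a covariate for the 10th percentile (−0.18, adjusted p = 0.863). In cortex it ran from 58.6 over 176 to 399 on the ipsilateral side and from 80.4 over 197 to 352 on the contralateral side at 24 h, and from 39.3 over 168 to 534 and 21 over 290 to 574 on the same sides at 4 h. These ranges overlapped almost wholly, and the probe set passed in no other comparison. Its differences between 24 h and 4 h were −0.20 (SE 0.24) in ipsilateral and −0.44 (SE 0.23) in contralateral cortex, opposite in direction to those of X91810_at.

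Socs3, the feedback inhibitor, passed in none of the 9 comparisons. In ipsilateral hippocampus its 7 signals were 249, 199.7, 508, 126, 1135, 890.3 and 835 (arrays 17 to 22 and 24). In contralateral hippocampus they ran from 269 over 400.0 to 1012. Arrays 21, 22 and 24 were high and arrays 17, 18 and 20 lay below every contralateral array, so the group means were nearly equal (difference −0.00, 95% interval −0.83 to 0.83). In ipsilateral cortex at 4 h the 7 signals were 181, 795, 184, 1151, 411, 142 and 893 (arrays 1 and 3 to 8), and in contralateral cortex at 4 h they ran from 75.4 over 252 to 892. At the floor were 3 of the 7 ipsilateral and 2 of the 8 contralateral arrays. The difference was 0.34 (SE 0.42, limma adjusted p = 0.924), with a 95% interval of −0.51 to 1.19. At 24 h Socs3 ran from 113 over 222 to 723 in ipsilateral cortex and from 197 over 309 to 469.9 in contralateral cortex (difference −0.01, SE 0.41). The change between 24 h and 4 h was −0.51 (SE 0.42) in ipsilateral cortex and −0.15 (SE 0.41) in contralateral cortex. The group means, in order, were 8.83 in contralateral and 8.83 in ipsilateral hippocampus, 8.70 in ipsilateral and 8.36 in contralateral cortex at 4 h, and 8.21 in contralateral and 8.19 in ipsilateral cortex at 24 h, with SDs between 0.42 and 1.18. They spanned 0.63 log2 units, and no step between neighbours in their order was larger than its SDs. Within groups, Socs3 varied most with Stat3 X91810_at among the probe sets of the other 4 genes (r = 0.56 over 47 deviations from the group means).

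Cebpb had its highest signals in hippocampus and its lowest in cortex at 24 h. For probe set X60769mRNA_at, signal in ipsilateral cortex ran from 402 over 544 to 975 at 24 h, against 381 over 1294 to 2513 at 4 h. All 8 arrays at 24 h lay below the median at 4 h, but array 1 at 4 h was below them all. The difference was −1.14 (SE 0.29, 2.21-fold lower, limma adjusted p = 0.00313). In contralateral cortex the signal ran from 338 over 433 to 478 at 24 h, against 346 over 924 to 1331 at 4 h. Array 9 at 4 h, with 346, was the only one within the range at 24 h. The difference was −1.04 (SE 0.28, 2.06-fold lower, adjusted p = 0.00461). Both time differences passed in every fit that left out 1 array, between −1.43 and −0.98 on the ipsilateral side and between −1.22 and −0.95 on the contralateral side. They also passed under each of 8 other processing settings.

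Between sides, Cebpb X60769mRNA_at did not pass in cortex. At 24 h, 5 of 8 ipsilateral arrays were above the highest contralateral array (difference 0.49, SE 0.28, limma adjusted p = 0.743). At 4 h the ipsilateral arrays were 381, 1191, 744, 1294, 2112, 2292 and 2513, and 3 of 7 were above the highest contralateral array (0.59, SE 0.29, adjusted p = 0.666). The change of this side difference with time was −0.10 (95% interval −0.90 to 0.70). In hippocampus it ran from 1349 over 2242 to 3554 on the ipsilateral side and from 869.6 over 1887 to 2461 on the contralateral side. Arrays 21, 22 and 24 were above every contralateral array, and the difference of 0.37 (SE 0.28) did not pass (adjusted p = 0.368).

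Hippocampus was above cortex for Cebpb X60769mRNA_at at 4 h on both sides. The contralateral difference was 1.04 (SE 0.27, 2.05-fold, limma adjusted p = 0.00227), with 7 of 9 hippocampal arrays above the highest cortical array. Without array 23 it was 0.98 (adjusted p = 0.00518). The ipsilateral difference was 0.82 (SE 0.30, 1.76-fold, adjusted p = 0.0338), with 7 of 7 arrays above the cortical median. It was lost without any 1 of arrays 1, 3, 4, 21, 22 or 24 (0.53 without array 1, adjusted p up to 0.153), and also after quantile normalization (adjusted p = 0.0711), with only the compared arrays in the fit (adjusted p = 0.132) and with the covariate for the 10th percentile (adjusted p = 0.0578). The mean log2 signals, in order, were 11.13 ± 0.51 in ipsilateral hippocampus, 10.75 ± 0.48 in contralateral hippocampus, 10.31 ± 0.99 in ipsilateral cortex at 4 h, 9.72 ± 0.62 in contralateral cortex at 4 h, 9.17 ± 0.46 in ipsilateral cortex at 24 h and 8.68 ± 0.19 in contralateral cortex at 24 h. The whole span was 2.45 log2 units, and only the last step, 0.49, was larger than the SD of either neighbour.

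The second Cebpb probe set, S77528cds_s_at, has the suffix that this array design gives to probes able to match more than 1 transcript. It was at the floor on all 8 arrays of each side in cortex at 24 h. In hippocampus it ran from 332 over 778 to 991 on the ipsilateral side and from 87.1 over 391.9 to 948 on the contralateral side. Of the 7 ipsilateral arrays 6 were above the contralateral median and 2 above the highest array, which was array 23. The difference was 0.96 (SE 0.29, 1.95-fold, limma adjusted p = 0.0188), and 1.14 without array 23 (adjusted p = 0.00452). Without array 21 the adjusted p was 0.0501. The call was also lost with a floor at the 10th percentile (1.13, adjusted p = 0.0771), with only the compared arrays (adjusted p = 0.0608) and with a covariate for the 10th percentile (0.73, adjusted p = 0.468). Against ipsilateral cortex at 4 h, which ran from 64.6 over 124 to 706, ipsilateral hippocampus was 1.18 higher (SE 0.30, 2.27-fold, adjusted p = 0.00244), in each of 14 fits that left out 1 array. The contralateral difference between hippocampus and cortex was 0.62 (SE 0.28, adjusted p = 0.0791), and 0.44 without array 23 (adjusted p = 0.208). It passed with the lower floor (1.12, adjusted p = 0.0434), the offset (0.74, adjusted p = 0.0440) and the covariate (0.70, adjusted p = 0.0498). With the lower floor S77528cds_s_at was also lower at 24 h than at 4 h, with differences of −1.41 in ipsilateral cortex (adjusted p = 0.0253) and −1.32 in contralateral cortex (adjusted p = 0.0289). With the offset these were −0.88 (limma adjusted p = 0.0383) and −0.82 (adjusted p = 0.0452). The Cebpb probe sets varied together within groups with r = 0.45 over 47 deviations.

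**Figure D2:**
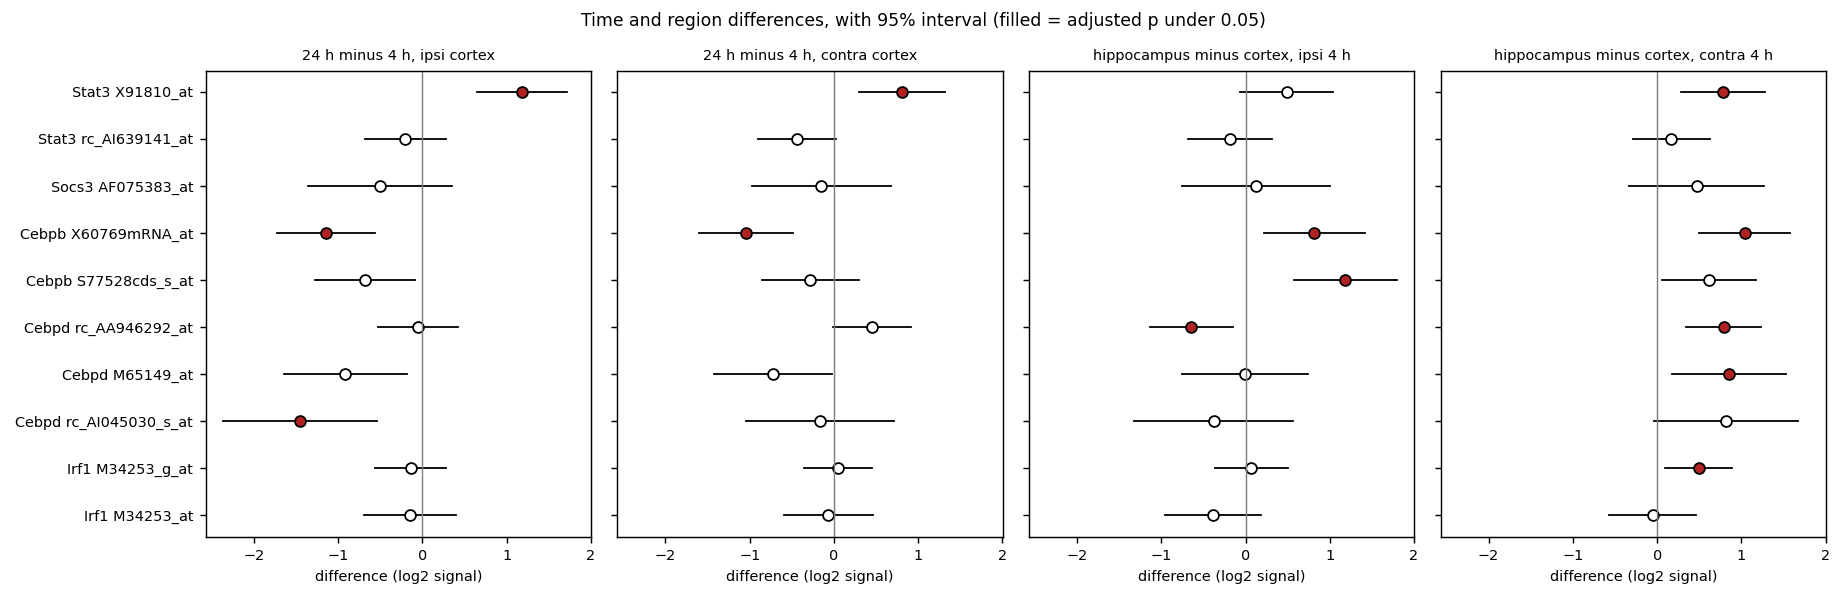
Difference in log2 signal with its 95% interval for each of the 10 probe sets, 24 h minus 4 h in cortex of each side and hippocampus minus cortex at 4 h on each side, filled where the limma adjusted p is under 0.05. Stat3 X91810_at is higher and Cebpb X60769mRNA_at lower at 24 h on both sides, by 1.18 and 0.81 for Stat3 and by −1.14 and −1.04 for Cebpb.

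Cebpd had 3 probe sets that did not measure alike. Over the deviations of the 47 arrays from their group means, M65149_at and rc_AI045030_s_at had r = 0.74 with each other, while rc_AA946292_at had r = −0.03 with M65149_at and −0.07 with rc_AI045030_s_at. The files do not settle which of them follows the Cebpd transcript, so each is given by its own name. The second carries the suffix for probes that can match more than 1 transcript.

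**Figure D3:**
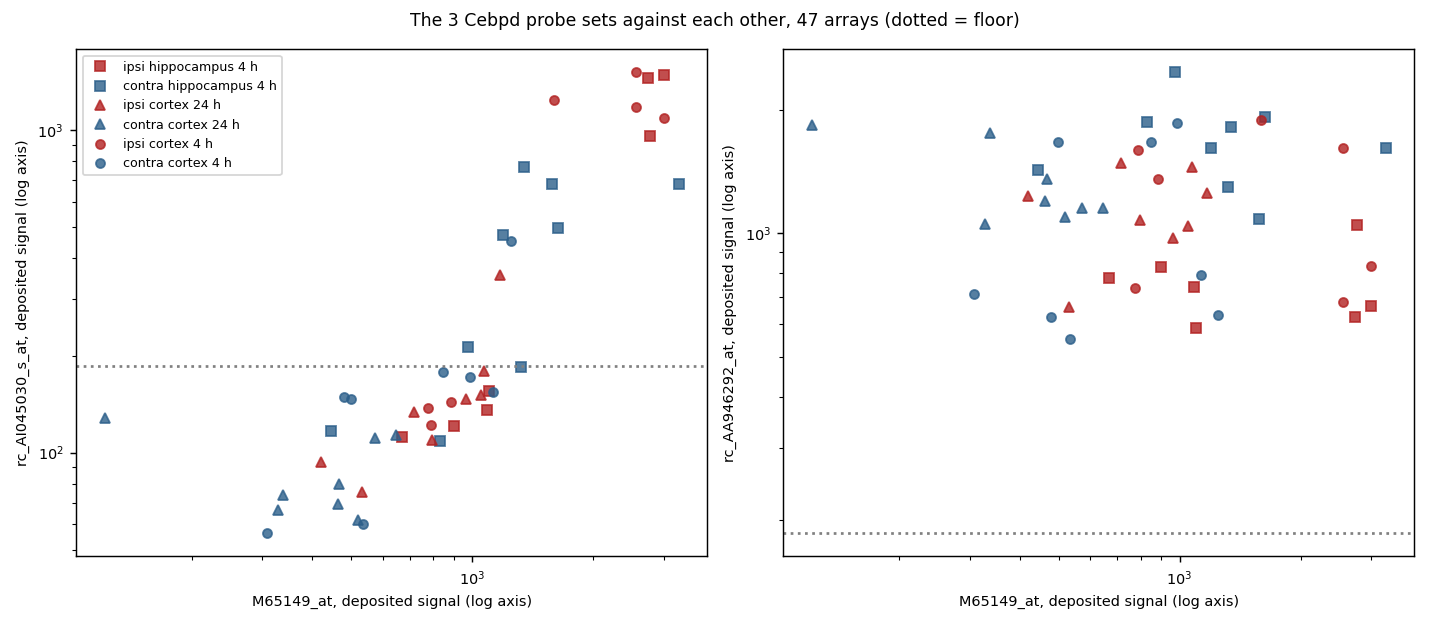
Deposited signal (log axes) of Cebpd probe set M65149_at on each of 47 arrays against rc_AI045030_s_at on the left and rc_AA946292_at on the right, with symbols for region and time, red for ipsilateral, blue for contralateral and dotted lines at the floor. The first pair rises together (r = 0.74 for deviations from group means) and the second does not (r = −0.03).

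Cebpd M65149_at in ipsilateral cortex at 4 h gave 787, 886, 775, 2559, 1596, 3004 and 2549 on arrays 1 and 3 to 8. In contralateral cortex at 4 h it ran from 309 over 691 to 1248. All 7 ipsilateral arrays lay above the contralateral median and arrays 5 to 8 above its highest array, so the ipsilateral group fell apart into 3 lower and 4 higher arrays. The difference was 1.14 (SE 0.36, 2.20-fold), which did not pass over all probe sets (unadjusted p = 0.00285, limma adjusted p = 0.396). The same arrays 5 to 8 had 1094 to 1509 for rc_AI045030_s_at, against 121 to 143 on arrays 1, 3 and 4. In contralateral cortex at 4 h rc_AI045030_s_at was at the floor on 7 of 8 arrays and had 452 on array 15. The difference was 1.41 (SE 0.45, 2.65-fold, adjusted p = 0.410). Summed neutrophil markers (3 of 6 on the array) ran from 770 to 1701 in ipsilateral cortex at 4 h, against 330 to 1324 in contralateral cortex at 4 h. The calgranulin genes S100a8 and S100a9, made by neutrophils, were at the floor on 2 and 1 of 7 ipsilateral arrays and on 5 and 6 of 8 contralateral arrays. The part of neutrophils in the Cebpd signal was not tested.

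At 24 h Cebpd M65149_at ran from 420.2 over 880 to 1169 in ipsilateral cortex and from 122 over 465 to 646 in contralateral cortex. Of the 8 ipsilateral arrays, 6 exceeded every contralateral array. The difference of 0.95 (SE 0.35, 1.93-fold, limma adjusted p = 0.413) did not pass, and it was close in size to that at 4 h (change with time −0.19, 95% interval −1.20 to 0.82). For rc_AI045030_s_at the ipsilateral group was at the floor on 7 of 8 arrays and the contralateral group on 8 of 8, and its side difference changed by −1.29 with time (95% interval −2.56 to −0.03, unadjusted p = 0.0455, adjusted p = 0.880). In ipsilateral cortex, rc_AI045030_s_at was lower at 24 h than at 4 h by 1.45 log2 units (difference −1.45, SE 0.45, 2.74-fold, adjusted p = 0.0172), with 8 of 8 arrays at 24 h below the 4 h median. Without array 6 or array 8 it no longer passed (−1.21 without array 8, adjusted p up to 0.0577), nor with array weights (−1.25, adjusted p = 0.0519). M65149_at had a difference of −0.91 (SE 0.36, adjusted p = 0.0686), which passed when any 1 of the lower arrays 1, 3 and 4 was left out (adjusted p down to 0.0347). In contralateral cortex M65149_at had −0.72 (SE 0.35, adjusted p = 0.142) and rc_AI045030_s_at −0.16 (SE 0.44, adjusted p = 0.840).

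In ipsilateral hippocampus Cebpd M65149_at gave 666, 899, 1099.9, 1089, 2738, 2771 and 3000.0 on arrays 17 to 22 and 24. In contralateral hippocampus it ran from 443 over 1320 to 3260, the last being array 23. Arrays 21, 22 and 24 lay above every contralateral array but array 23. The difference was 0.28 (SE 0.35, limma adjusted p = 0.615), and 0.45 without array 23 (adjusted p = 0.391). The other member, rc_AI045030_s_at, had 1446, 960.3 and 1484 on arrays 21, 22 and 24, against 112 to 155 on the other 4 ipsilateral arrays. In contralateral hippocampus it ran from 109 over 474 to 770. The difference was 0.22 (SE 0.44), with 3 ipsilateral arrays above and 4 within the contralateral range. Arrays 21, 22 and 24 also had the 3 highest microglia and macrophage marker sums of their group, 10591 to 12358 against 8033 to 8472 on the other 4 arrays, and the part of these cells was not tested. Against contralateral cortex at 4 h, contralateral hippocampus had a higher M65149_at signal by 0.85 (SE 0.34, 1.81-fold, adjusted p = 0.0464). This passed in 7 of 17 fits that left out 1 array, and without array 23 it was 0.68 (adjusted p = 0.118). It did not pass under 7 of the 8 other processing settings, with an adjusted p up to 0.165.

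Probe set rc_AA946292_at, which the annotation gives to Cebpd, behaved otherwise. In hippocampus it ran from 587 over 742 to 1051 on the ipsilateral side and from 1083 over 1615 to 2468 on the contralateral side, and the groups did not overlap. The difference was −1.14 (SE 0.23, 2.20-fold lower, limma adjusted p = 0.00123), the same without array 23 (−1.14, adjusted p = 0.00206), and it passed in all 16 fits that left out 1 array. In cortex it ran from 662 over 1156 to 1484 on the ipsilateral and from 1054 over 1175 to 1839 on the contralateral side at 24 h, and from 682 over 1360 to 1893 and 554 over 752 to 1862 on the same sides at 4 h. These groups overlapped, and the side differences were −0.22 at 24 h (SE 0.23) and 0.29 at 4 h (SE 0.24). The differences between 24 h and 4 h were −0.05 (SE 0.24) in ipsilateral and 0.45 (SE 0.23, limma adjusted p = 0.159) in contralateral cortex. The contralateral value passed with array weights (0.55, adjusted p = 0.0498) and with a covariate for the 10th percentile (0.60, adjusted p = 0.0142). The hippocampal side difference was lower than that of cortex at 4 h by 1.43 (interaction −1.43, SE 0.33, adjusted p = 0.0120). Without array 23 the interaction was −1.43 (adjusted p = 0.0146). The 10th percentile of signal moved with this result. With it as a covariate the hippocampal difference was −0.56 (adjusted p = 0.370) and the interaction −0.83 (adjusted p = 0.270), and 5 of 7503 probe sets passed between the hippocampal sides in place of 1207.

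Contralateral hippocampus was above contralateral cortex at 4 h for rc_AA946292_at by 0.79 (SE 0.22, limma adjusted p = 0.00473, and 0.79 without array 23 with adjusted p = 0.00664), and ipsilateral hippocampus was below ipsilateral cortex by 0.64 (difference −0.64, SE 0.24, adjusted p = 0.0442). The ipsilateral value passed in 5 of 14 fits that left out 1 array, and it was lost without the filter (adjusted p = 0.0585), with only the compared arrays (adjusted p = 0.0690) and with the covariate (−0.24, adjusted p = 0.464). Summed choroid plexus markers (4 of 5 on the array) ran from 6413 over 9565 to 96741 in ipsilateral hippocampus and from 6602 over 44279 to 93128 in contralateral hippocampus. Arrays 17, 18 and 24 of the ipsilateral side and 25, 26, 28, 29 and 32 of the contralateral side had sums of at least 44279. The part of choroid plexus in the hippocampal side differences was not tested.

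**Figure D4:**
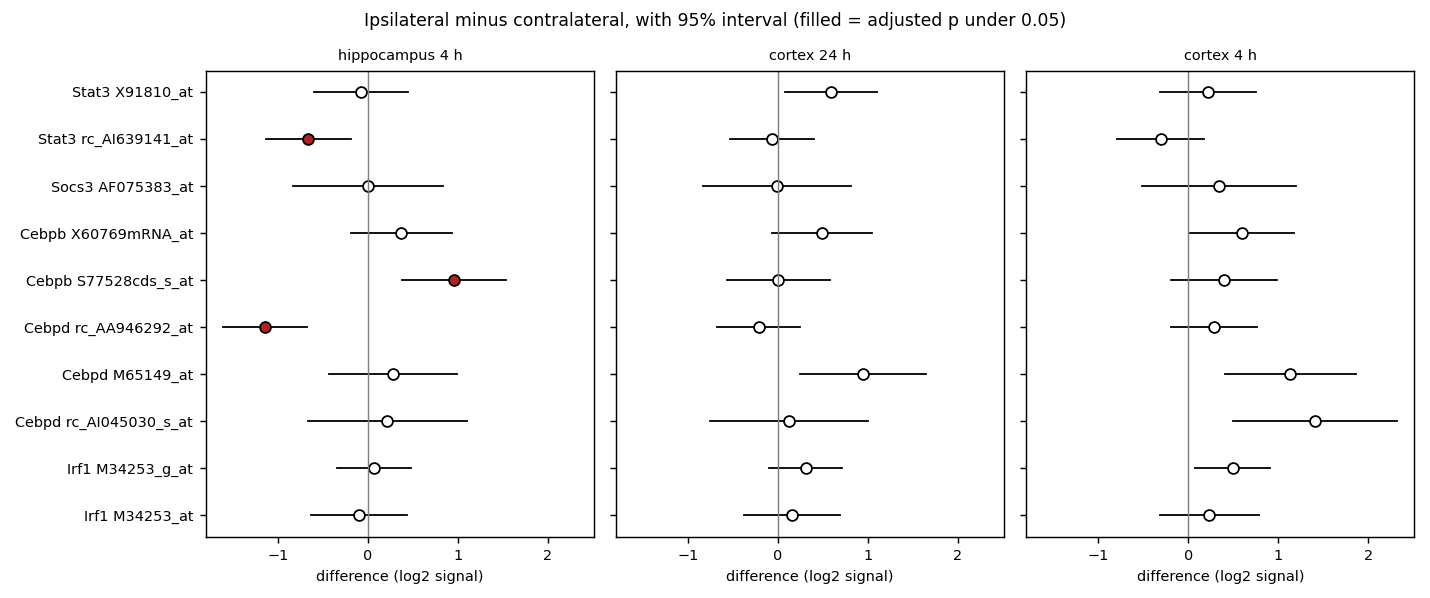
Ipsilateral minus contralateral difference in log2 signal with its 95% interval for each of the 10 probe sets in hippocampus at 4 h and in cortex at 24 h and 4 h, filled where the limma adjusted p is under 0.05. In hippocampus S77528cds_s_at of Cebpb is higher and rc_AA946292_at of Cebpd and rc_AI639141_at of Stat3 are lower, while in cortex M65149_at of Cebpd has the values 0.95 at 24 h and 1.14 at 4 h without passing.

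Irf1 had the smallest spans of group means among the 5 genes, 0.56 log2 units for M34253_g_at and 0.39 for M34253_at. In ipsilateral cortex at 4 h the signals were 435, 1049.6, 721, 1346, 849, 1269 and 805 on arrays 1 and 3 to 8, and in contralateral cortex at 4 h they ran from 435 over 633 to 914. Of the 7 ipsilateral arrays, 6 lay above the contralateral median and 3 above the highest array. The difference was 0.49 (SE 0.21, 1.41-fold, unadjusted p = 0.0220, limma adjusted p = 0.604). At 24 h the difference was 0.31 (SE 0.20, adjusted p = 0.802), with 4 of 8 ipsilateral arrays above every contralateral array. In hippocampus Irf1 ran from 603 over 827 to 1712 on the ipsilateral side and from 697 over 837 to 1326 on the contralateral side, and the difference was 0.07 (95% interval −0.34 to 0.48). Arrays 21 and 24 had the 2 highest signals of the ipsilateral group and array 23 that of the contralateral group. Contralateral hippocampus was above contralateral cortex at 4 h by 0.49 (SE 0.20, adjusted p = 0.0467), which was 0.42 without array 23 (adjusted p = 0.102) and passed in 4 of 17 fits that left out 1 array. It was also lost with a floor at the 10th percentile, without the filter, after quantile normalization, with array weights and with the covariate (adjusted p up to 0.325). The time differences were −0.14 (SE 0.21) in ipsilateral and 0.05 (SE 0.20) in contralateral cortex. The second probe set, M34253_at, had group medians between 304 and 411, passed in no comparison and had differences between −0.39 and 0.23 over the 7 side, time and region comparisons. Without array 23, no member that had not passed did so. Between hippocampal sides the differences were then −0.06 for Stat3 X91810_at, 0.14 for Socs3, 0.43 for Cebpb X60769mRNA_at, 0.33 for Cebpd rc_AI045030_s_at, 0.14 for Irf1 M34253_g_at and −0.04 for M34253_at. Between contralateral hippocampus and cortex they were 0.03 for rc_AI639141_at, 0.32 for Socs3, 0.70 for rc_AI045030_s_at and −0.11 for M34253_at.

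Within a group, the same arrays tended to be high for several of these genes. Over the 47 deviations from the group means, Cebpd M65149_at had r = 0.69 with Cebpb X60769mRNA_at, 0.51 with Irf1 M34253_g_at, 0.45 with Socs3 and 0.38 with Stat3 X91810_at. These correlations describe arrays that share their groups and their RNA, and they carry no test. Among genes outside the 5, the 3 most alike in deviation to M65149_at were Lcn2 (0.79), an iron-binding acute phase protein, Ccl2 (0.77), a monocyte chemokine, and Hmox1 (0.75), which degrades heme. For rc_AI045030_s_at of Cebpd they were Ccl2 (0.82), Ccl3 (0.81) and Nfkbia (0.81), the inhibitor of NF-kB. For Irf1 M34253_g_at they were Ccl2 (0.72), Cxcl10 (0.70), an interferon-induced chemokine, and Litaf (0.67). Cebpb X60769mRNA_at was most like Errfi1 (0.75), Slc2a1 (0.74), the glucose transporter of the blood-brain barrier, and Nfkbia (0.70). Socs3 was most like Nfkbia (0.64), Timp3 (0.64) and Gadd45a (0.63), and Stat3 X91810_at like Mat2a (0.80), Lamc1 (0.69) and Plau (0.68). For rc_AA946292_at the 3 were Acot7 (0.76), Or9s23b (0.75) and Ins2 (0.75), an olfactory receptor and an insulin gene among them.

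**Figure D5:**
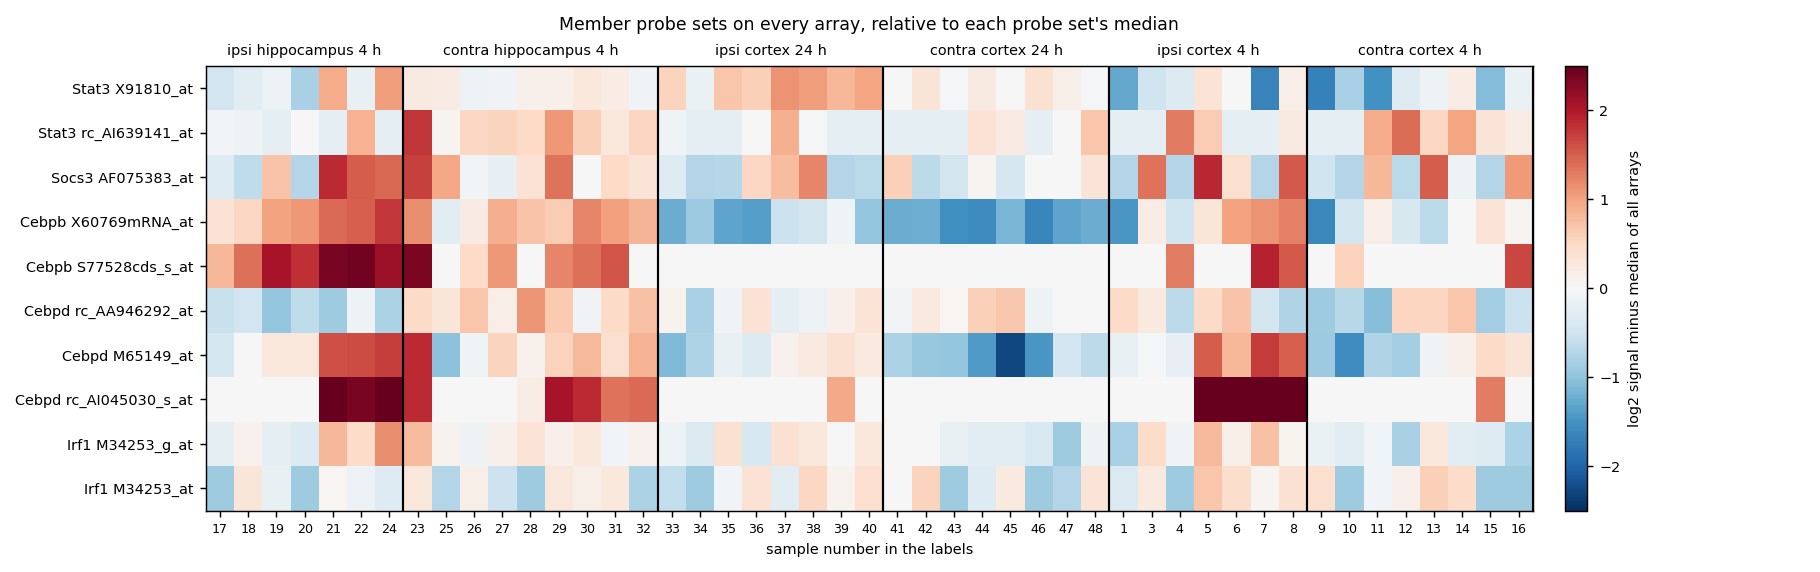
Log2 signal of each of the 10 probe sets on each of 47 arrays after flooring, minus that probe set's median over all arrays, ordered by group and by sample number and drawn on a scale that ends at −2.5 and 2.5. Arrays 21, 22 and 24 of ipsilateral hippocampus, array 23 and arrays 5 to 8 of ipsilateral cortex at 4 h are high for Cebpd M65149_at and rc_AI045030_s_at. For rc_AI045030_s_at, 6 of 9 contralateral hippocampal arrays were above the floor, and array 29 was the highest of them.

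The rest of the pathway was read from gene lists, each gene by the brightest of its probe sets on average, which for Cebpd is rc_AA946292_at. Among 8 tested ligands of gp130 and related JAK-STAT receptors, none passed between cortical sides. In hippocampus 2 were lower on the ipsilateral side, the leptin gene Lep (−0.66, SE 0.13) and Csf3 (−0.73, SE 0.25), where 10.8% of all probe sets were lower. In contralateral cortex, where 13.2% of all were higher at 24 h, Csf3 (0.67, SE 0.25) and Lep (0.57, SE 0.13) were higher at 24 h. Interleukin-6 itself was on the array and did not pass the filter on dim probe sets. Of 14 receptors and kinases, Jak1 was higher at 24 h in cortex of both sides, by 0.61 (SE 0.12) ipsilaterally and 0.31 (SE 0.11) contralaterally. In hippocampus Jak1 (0.33, SE 0.11) and the interferon receptor gene Ifnar1 (0.65, SE 0.20) were higher, and the prolactin and leptin receptor genes Prlr (−1.13, SE 0.31) and Lepr (−0.63, SE 0.22) were lower on the ipsilateral side. Prlr is also 1 of the choroid plexus markers, whose summed signal had a median of 9565 in ipsilateral and 44279 in contralateral hippocampus, and the part of choroid plexus was not tested. Of 5 STAT genes, Stat3 alone passed with time, on both sides, and Stat5a was higher in ipsilateral hippocampus by 0.75 (SE 0.22). Of 8 inhibitors, Pias3, which blocks the binding of Stat3 to DNA, was lower in ipsilateral hippocampus (−0.38, SE 0.14). The phosphatase gene Ptpn1 was lower at 24 h by 0.41 in ipsilateral cortex (difference −0.41, SE 0.09) and by 0.39 in contralateral cortex (difference −0.39, SE 0.09), and Socs2 was higher in contralateral cortex by 0.92 (SE 0.18). Each of these gene differences passed the limma adjusted p of 0.05. With a covariate for the 10th percentile of signal, 5 of 7503 probe sets passed between hippocampal sides in place of 1207. Most hippocampal side differences named from the lists, here and in the next paragraph, therefore did not pass with that covariate. The counts of every gene list here are to be read against the share of all probe sets that passed in the same comparison, and none is read as setting a list apart.

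Of 23 tested genes reported as Stat3 targets, 4 were higher and 1 lower at 24 h in ipsilateral cortex, where 11.4% of all probe sets were higher and 7.92% lower, with a median difference of 0.08 beside 0.03 over all probe sets. A2m, a protease inhibitor of the acute phase, had 0.92 (SE 0.26), Lbp, which binds bacterial lipopolysaccharide, 0.75 (SE 0.18), and the cyclin Ccnd1 0.48 (SE 0.13), while Cebpb was the one that was lower. Between cortical sides none of the 23 passed, the smallest p being those of Lbp (0.72, SE 0.17, limma adjusted p = 0.0785) and Vim (0.74, SE 0.20, adjusted p = 0.143) at 24 h and of Icam1 (1.22, SE 0.28, adjusted p = 0.134) and Cebpb at 4 h. Vim is an intermediate filament gene and Icam1 an adhesion molecule of activated endothelium. Their median was 0.09 at 24 h beside −0.02 over all probe sets, and 0.23 at 4 h beside −0.00 over all, with 18 of 23 above 0. In hippocampus 4 of 23 were lower on the ipsilateral side (Cebpd by rc_AA946292_at, Hspb1 −0.95, Bcl2 −0.83 and Fgg −0.81), where 10.8% of all probe sets were lower, and the median was −0.22 beside −0.04 over all. In contralateral cortex Ccnd1 was higher (0.39, SE 0.13) and Cebpb lower at 24 h. Of 10 tested members and partners of the C/EBP family, Cebpb and Atf3, a stress-induced factor (−0.86, SE 0.24), were lower at 24 h in ipsilateral cortex. In contralateral cortex Cebpg, another family member, was higher at 24 h (0.47, SE 0.17) and Cebpb lower. In hippocampus Cebpd by rc_AA946292_at, Hlf (−1.03, SE 0.26) and Tef (−0.32, SE 0.11), the last 2 from the clock-controlled PAR family, were lower on the ipsilateral side. Of 17 reported C/EBP targets, A2m and Lbp were higher and Ccl3 lower (−1.25, SE 0.43) at 24 h in ipsilateral cortex. In contralateral cortex Csf3 and Ptgs2, an inducible enzyme of prostaglandin synthesis (0.67, SE 0.24), were higher at 24 h. In hippocampus the acute phase gene Orm1 (−0.98, SE 0.21) and Csf3 were lower on the ipsilateral side. Between cortical sides at 4 h none of the 17 passed, the smallest p being those of Ccl2 (1.76, SE 0.56, adjusted p = 0.404) and Ccl3 (1.33, SE 0.43, adjusted p = 0.420). Of 17 reported Irf1 targets, Cxcl10 was lower at 24 h in ipsilateral cortex (−1.40, SE 0.43), and Vcam1 was higher at 24 h in contralateral cortex (0.46, SE 0.13). In hippocampus Oas1a (−0.61, SE 0.19) and Vcam1 (−0.44, SE 0.13) were lower on the ipsilateral side. Between cortical sides at 4 h none of the 17 passed, and Cxcl10 had the smallest p (1.54, SE 0.43, adjusted p = 0.217). Among 5 tested IRF genes none passed between sides or times, and of 2 tested NF-kB genes Nfkbia was lower at 24 h in ipsilateral cortex (−0.74, SE 0.20).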

How the data were processed

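The authors deposited 1 linear intensity value (signal) for each probe set and array. How probes were summarised is not given in the sources used here, nor is any scaling target. The 2%-trimmed means of the arrays lay between 2503 and 2504, so values were kept as deposited. A floor at the 25th percentile of the whole table (185.8) was applied before log2. Probe sets above it on at least 7 arrays were tested, without 59 control probe sets, which left 7503. Gene symbols are those of the platform annotation, brought up to date through gene IDs. All 47 arrays went into 1 model of 6 group means in limma 3.58.1 (R 4.3.3; eBayes with intensity trend), two-sided, with Benjamini-Hochberg adjustment over the 7503 probe sets in each of 9 comparisons at 0.05. The procedure was tested on simulated data for the side comparisons, with independent normal noise for each probe set and no floor. That simulation does not cover floored values or shifts shared by many probe sets. Alternatives were another floor, an offset of 100 without floor, no filter, quantile normalization, only the compared arrays, no trend, array weights, a covariate for each array's dim end (log2 of its 10th percentile), and leaving out each array. Every probe set of the 5 genes is described; of each gene list in side and time comparisons up to 4 members past the threshold with the largest differences are named, and where none passed, in some comparisons, those with the smallest p; likeness lists hold the 3 highest Pearson correlations. The 5 genes and the lists were chosen with earlier results of these data known. Each array's number occurs once, so no pairing or block was used.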

Additional observations from a re-analysis of the deposited data

Results flagged for a closer look

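Of 57 groups of member values examined, 7 held an array that stood apart from the rest of its group by its gap to the nearest array. The rule's rate of about 1 in 20 holds for values without a floor. It does not apply to groups with arrays at the floor, such as those of rc_AI639141_at, S77528cds_s_at and rc_AI045030_s_at named here. The 7 are therefore not read against that rate. For Stat3 X91810_at in ipsilateral cortex at 24 h, array 34 was low at 9.06 log2 signal, with the next array at 9.77. For Stat3 rc_AI639141_at, array 37 of ipsilateral cortex at 24 h was high at 8.64 and array 22 of ipsilateral hippocampus at 8.63. For Cebpb S77528cds_s_at, array 16 of contralateral cortex at 4 h was high at 9.21, with the next array at 8.12. For Cebpd rc_AI045030_s_at, array 39 of ipsilateral cortex at 24 h had 8.48 and array 15 of contralateral cortex at 4 h had 8.82, each the only array of its group above the floor. For Irf1 M34253_g_at, array 47 of contralateral cortex at 24 h was low at 8.70, with the next array at 9.21. Of 20 tests of a change in the side difference with time or region, 1 passed in limma: for Cebpd rc_AA946292_at the side difference in hippocampus minus that in cortex at 4 h was −1.43 (adjusted p = 0.0120).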

How the results depend on the processing

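Of 720 values of single probe sets under 8 alternatives, 652 kept their direction and side of the threshold, 30 lost it, 11 gained it and 27 turned direction. The count of members past the threshold between hippocampal sides was 3 as reported, 1 with a floor at the 10th percentile and 0 with each array's dim end (its 10th percentile) as a covariate, where the region difference of the side effect also went to 0. Between hippocampal sides Stat3 rc_AI639141_at was also lost with the offset, without the filter and after quantile normalization. Cebpb S77528cds_s_at was lost there with only the compared arrays. For the other comparisons, only the larger changes of the count across settings are listed, and smaller ones occurred too. Between hippocampus and cortex the ipsilateral count of 3 was 1 with only the compared arrays, and the contralateral count of 5 was 3 without the filter, 2 after quantile normalization and 3 with array weights. Leaving out 1 array gave counts between 1 and 3 for hippocampal sides, 1 and 2 for contralateral time, 1 and 3 for the ipsilateral and 3 and 5 for the contralateral region comparison, 2 and 4 for ipsilateral time, and 0 throughout for cortical sides. All values that turned direction lay far from the threshold in both settings. With a floor at the 10th percentile, contralateral time gave Socs3 0.10 and Irf1 M34253_at 0.057, and the contralateral region comparison gave M34253_at 0.23. With an offset these 2 Irf1 values were 0.0097 and 0.10. After quantile normalization, hippocampal sides gave Stat3 X91810_at 0.10, Socs3 0.18 and M34253_at 0.0639, and Irf1 M34253_g_at had −0.0671 for contralateral time and −0.0263 for the ipsilateral region comparison. Array weights gave Socs3 0.0033 for hippocampal sides, Cebpd rc_AA946292_at 0.0271 for ipsilateral time, and M34253_at 0.11 for contralateral time and 0.048 for the contralateral region comparison. With the covariate, cortical sides at 24 h gave Stat3 rc_AI639141_at 0.0177 and Socs3 0.0942, and hippocampal sides gave Stat3 X91810_at 0.30, Socs3 0.61 and M34253_at 0.13. Ipsilateral time gave rc_AI639141_at 0.0144 and rc_AA946292_at 0.21, contralateral time Socs3 0.0015, and the ipsilateral region comparison rc_AI639141_at 0.15 and Cebpd M65149_at 0.13. The difference between hippocampal and cortical side effects gave X91810_at 0.0896, rc_AI639141_at 0.14 and Socs3 0.29. The causes were not tested. Signal over background limits S77528cds_s_at and rc_AI045030_s_at, which were at the floor on most cortical arrays, so their differences can be understated there.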
